A study of Homo sapiens with 12 samples.

Results

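Translesion synthesis and damage tolerance genes were followed through cisplatin treatment of cells labelled TYK-nu, a line of high-grade serous ovarian cancer. The set was a fixed list of 10 genes: POLH, POLK, POLI, REV1, REV3L, MAD2L2, RAD18, PRIMPOL, HLTF and SHPRH. It was matched by symbol to the Ensembl identifiers of a table of exon and intron counts for 17508 genes. Rows were found for 8 genes, and REV3L and SHPRH were not analysed here. All 8 passed every filter on low counts, with 264 to 5303 exon counts and 17 to 996 intron counts per library.

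Cells received 15 μM cisplatin or DMSO, the solvent control, for 24 or 72 h. Each of the 4 groups (DMSO 24 h, Cisplatin 24 h, DMSO 72 h and Cisplatin 72 h) held 3 replicates. Poly(A)+ RNA was made into directional libraries, and all 12 libraries ran on 1 lane. All groups share this line, and no source used here says whether the triplicates were set up on separate days, so p-values measure the spread between these cultures only.

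When a replicative polymerase stops at a damaged base, the cell can tolerate the lesion instead of repairing it at once. RAD18 attaches a single ubiquitin to the sliding clamp PCNA, and this recruits the Y-family polymerases POLH, POLK, POLI and REV1, whose open active sites insert a nucleotide opposite the lesion. Polymerase zeta, built from the catalytic subunit REV3L and the adaptor MAD2L2 (also called REV7), then extends the primer. HLTF and SHPRH lengthen the ubiquitin on PCNA into a chain that favors template switching, and PRIMPOL starts a new DNA strand beyond the lesion. Cisplatin crosslinks neighboring guanines, and POLH is known for copying past such intrastrand crosslinks.

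Windows just upstream of 4 of the genes are shown to set genes of different course side by side. Each window holds the 140 bases before the outermost start annotated by GENCODE release 44, read from GRCh38 on the strand of the gene. POLH is shown as a gene whose exon counts were lower at 72 h, POLI and PRIMPOL as genes whose counts were higher, and HLTF as one that was not called. The windows lie at chr6:43576045-43576184 (POLH, + strand), chr18:54269377-54269516 (POLI, + strand), chr4:184649527-184649666 (PRIMPOL, + strand) and chr3:149086555-149086694 (HLTF, - strand). Capitals mark every match, on either strand, to the motifs searched.
POLH: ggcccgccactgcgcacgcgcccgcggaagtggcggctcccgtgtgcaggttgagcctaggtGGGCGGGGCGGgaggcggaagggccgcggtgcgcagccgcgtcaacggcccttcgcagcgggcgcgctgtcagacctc
POLI: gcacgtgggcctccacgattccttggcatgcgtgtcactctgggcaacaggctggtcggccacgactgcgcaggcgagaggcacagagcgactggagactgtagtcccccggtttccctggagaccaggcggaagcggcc
PRIMPOL: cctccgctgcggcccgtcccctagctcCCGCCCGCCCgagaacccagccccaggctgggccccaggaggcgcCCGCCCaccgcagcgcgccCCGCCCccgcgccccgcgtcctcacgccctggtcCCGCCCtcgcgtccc
HLTF: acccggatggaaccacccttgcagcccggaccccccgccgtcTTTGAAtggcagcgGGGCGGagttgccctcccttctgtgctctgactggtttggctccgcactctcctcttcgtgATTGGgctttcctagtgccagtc

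The motifs were chosen with the expression values known. They were the GC box GGGCGG, the CCAAT box, the cell-cycle homology region TTTGAA, the E2F motifs TTTGGCGC and TTTCGCGC, the ETS motif CCGGAAGT and the CRE TGACGTCA. POLH held 2 GC boxes that overlap by one base, PRIMPOL held 5, of which the pair farthest from the start overlap, and POLI held no match to any motif. HLTF held 1 GC box, 1 CCAAT box and 1 TTTGAA. Over 17485 windows of the same length, 43.8% held a GC box, 24.3% a CCAAT box, 5.49% TTTGAA, 3.21% the ETS motif, 1.69% the CRE and 0.58% an E2F motif. GC content was 77.1% for POLH, 66.4% for POLI, 83.6% for PRIMPOL and 62.9% for HLTF, where the median window had 62.9%. The POLI window lies within an exon of a long noncoding RNA gene on the opposite strand, and that of HLTF lies within the bounds of the opposite gene HLTF-AS1. RAD18 and MAD2L2 are not shown, since their canonical transcripts start 301 and 10663 bases inside the outermost start. A match describes letters only.

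Library totals of exon and intron counts ran from 18526830 to 68753262, and the 2 deepest libraries were replicates 1 and 2 of Cisplatin 72 h. The 12 pairs of replicates differed by more than sampling noise, with a chi-square per gene between 3.84 and 21.7. Of the markers of ovarian and epithelial origin, KRT8 had 11 to 34.5 and KRT18 had 133 to 181 CPM (exon counts per 1000000 exon counts of a library, with totals scaled by the TMM factors of edgeR), whereas PAX8, KRT7 and CDH1 did not exceed 0.303 CPM in any library. Of the mesenchymal markers, VIM reached 6770 to 8450 CPM, FN1 had 34.3 to 55.4 CPM and CDH2 had no exon count. The endothelial genes PECAM1 and CDH5 stood at 1350 to 2490 and 658 to 1050 CPM, the leukocyte gene PTPRC had no exon count, and CD68 had 322 to 657 CPM. WT1 had 1.59 to 4.19 and EPCAM 0.117 to 1.68 CPM. PAX8, KRT7 and CDH1 were thus at or near 0 and the keratins KRT8 and KRT18 were present, while MUC16 and MSLN were not analysed here. PECAM1 and CDH5 exceeded each ovarian and epithelial marker measured, which goes against the label, and the identity of the line was not tested. Of 10 markers tested, 6 rose and 4 fell with time in DMSO, and 6 rose and 3 fell in cisplatin, where 65.1% and 63.5% of all genes were called. In DMSO EPCAM rose 5.06-fold and KRT8 2.44-fold, and PECAM1 fell 1.77-fold and CDH5 1.48-fold. The part of these markers in the results was not tested.

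Time in culture separated 5 of the 8 damage tolerance genes, and cisplatin gave no call in exon counts by edgeR. Exon counts of POLI, PRIMPOL and MAD2L2 rose between 24 and 72 h and those of POLH and RAD18 fell, in DMSO and again in cisplatin. POLK, REV1 and HLTF were not called. The quasi-likelihood test of edgeR, with p-values adjusted by Benjamini-Hochberg over all 10444 genes and a threshold of 0.05, called 65.1% of all genes in DMSO and 63.5% in cisplatin. In DMSO 32.6% of all genes were called higher and 32.5% lower, and in cisplatin 32% and 31.5%. The 5 of 8 is thus close to the share among all genes. In these bulk samples, fewer cells expressing a gene and less RNA per cell cannot be told apart.

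**Figure D1:**
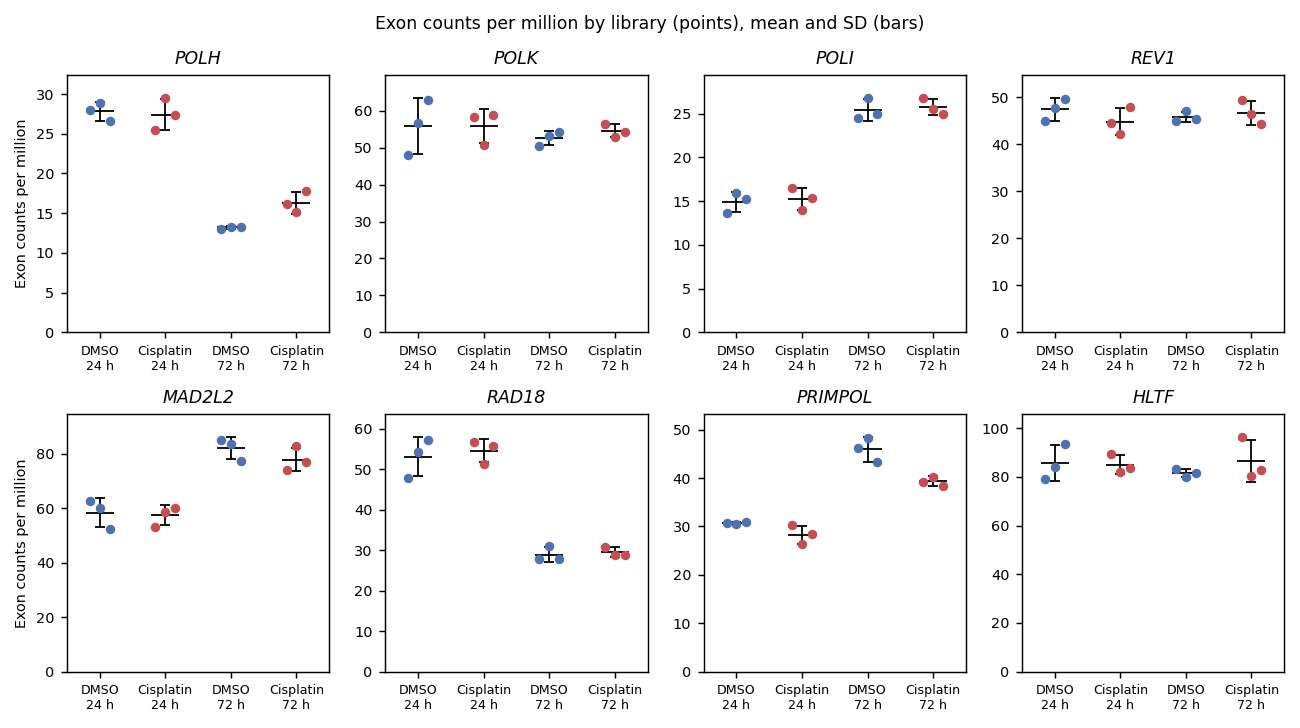
Exon CPM (vertical axes, starting at 0) of the 8 damage tolerance genes in each of the 12 libraries. Points are libraries (blue, DMSO; red, cisplatin), and bars show the mean and SD of 3. POLH and RAD18 are lower and POLI, PRIMPOL and MAD2L2 higher in every 72 h library than in every 24 h library of the same treatment, while POLK, REV1 and HLTF overlap.

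Among the Y-family polymerases, the 4 members took 3 courses. POLH (ENSG00000170734), on chromosome 6 from 43576185 to 43620523 on the + strand, encodes polymerase eta, which is missing in the variant form of xeroderma pigmentosum. Its exon CPM in the 3 DMSO libraries were 28.0, 28.9 and 26.6 at 24 h and 13.0, 13.3 and 13.2 at 72 h. Cisplatin libraries had 25.5, 29.5 and 27.3 CPM at 24 h and 16.1, 15.1 and 17.8 CPM at 72 h. In both treatments every 72 h library lay below every 24 h library. The log2 change was -1.08 in DMSO (standard error 0.085, adjusted p = 8.88e-11 by edgeR), a 2.11-fold fall. In cisplatin it was -0.76 (standard error 0.081, adjusted p = 2.05e-08 by edgeR), a 1.69-fold fall. The smaller fall in cisplatin is the interaction term, which was 0.32 on the log2 scale (95% interval 0.076 to 0.56) with an adjusted p of 0.455 by edgeR, and was not called.

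POLI (ENSG00000101751), on chromosome 18 from 54269517 to 54321266 on the + strand, encodes polymerase iota, an error-prone paralog of polymerase eta. Its course was the opposite of that of POLH. Exon CPM were 13.7, 15.9 and 15.2 in DMSO at 24 h and 24.5, 26.8 and 25.0 at 72 h. With cisplatin they were 16.5, 14.0 and 15.4 at 24 h and 26.8, 25.5 and 25.0 at 72 h. The times did not overlap in either treatment, and the treatments overlapped at both times. The log2 change was 0.77 in DMSO (standard error 0.085, adjusted p = 3.06e-08 by edgeR) and 0.76 in cisplatin (standard error 0.084, adjusted p = 3.51e-08), or 1.70-fold and 1.69-fold higher. POLI had 264 to 1637 exon counts per library.

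POLK (ENSG00000122008), on chromosome 5 from 75511845 to 75609991 on the + strand, encodes polymerase kappa, which extends primers past bulky minor-groove adducts. Exon CPM in DMSO were 48.0, 56.6 and 63.0 at 24 h and 50.5, 53.2 and 54.2 at 72 h. The cisplatin libraries had 58.2, 50.6 and 58.9 at 24 h and 56.5, 52.9 and 54.3 at 72 h. The widest spread was among the DMSO libraries at 24 h, and it spanned most of the other values. The log2 change with time was -0.08 in DMSO (95% interval -0.25 to 0.08) and -0.03 in cisplatin (-0.19 to 0.13). Without replicate 1 of DMSO 24 h, its lowest library, the DMSO change became -0.18 and was called (adjusted p = 0.0401 by edgeR).

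REV1 (ENSG00000135945), on chromosome 2 from 99400475 to 99490035 on the - strand, encodes a deoxycytidyl transferase that also serves as the scaffold on which the other translesion polymerases and polymerase zeta assemble. Its exon CPM lay between 44.9 and 49.7 in the 6 DMSO libraries and between 42.1 and 49.4 in the 6 cisplatin libraries. Of the 8 genes it had the narrowest range between group means, 0.079 on the log2 scale. The log2 change with time was -0.05 in DMSO (95% interval -0.19 to 0.09) and 0.06 in cisplatin (-0.07 to 0.20), so a change of more than 1.15-fold lies outside both intervals.

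Among the genes that act on the clamp, RAD18 changed with time and HLTF was not called. RAD18 (ENSG00000070950), on chromosome 3 from 8775402 to 8963773 on the - strand, encodes the ubiquitin ligase that starts the pathway. In DMSO its exon CPM were 47.8, 54.3 and 57.1 at 24 h and 27.9, 31.1 and 27.8 at 72 h. Cisplatin libraries had 56.7, 51.4 and 55.8 at 24 h and 30.9, 28.9 and 28.9 at 72 h. All 72 h libraries lay below all 24 h libraries, whatever the treatment. The log2 change was -0.87 in DMSO (standard error 0.075, adjusted p = 3.56e-10 by edgeR) and -0.88 in cisplatin (standard error 0.073, adjusted p = 2.39e-10), or 1.83-fold and 1.85-fold lower.

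HLTF (ENSG00000071794), on chromosome 3 from 149030127 to 149086554 on the - strand, encodes a ubiquitin ligase with a translocase domain that also reverses stalled forks. Exon CPM in DMSO were 79.1, 84.2 and 93.5 at 24 h and 83.4, 80.0 and 81.5 at 72 h. With cisplatin, values were 89.3, 81.9 and 83.7 at 24 h and 96.3, 80.5 and 83.0 at 72 h. The 4 groups overlapped. The log2 change with time was -0.07 in DMSO (95% interval -0.21 to 0.08) and 0.03 in cisplatin (-0.12 to 0.17).

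MAD2L2 and PRIMPOL, the polymerase zeta adaptor and the repriming enzyme, both rose with time. MAD2L2 (ENSG00000116670), on chromosome 1 from 11658918 to 11691811 on the - strand, also belongs to the shieldin complex, which limits resection of broken ends. Exon CPM in DMSO were 62.8, 60.0 and 52.5 at 24 h and 85.2, 83.5 and 77.4 at 72 h. The cisplatin libraries had 53.2, 58.8 and 60.1 at 24 h and 74.2, 82.7 and 76.9 at 72 h. The times did not overlap in either treatment. The log2 change was 0.48 in DMSO (standard error 0.070, adjusted p = 1.9e-06 by edgeR) and 0.44 in cisplatin (standard error 0.070, adjusted p = 6.58e-06), or 1.40-fold and 1.36-fold higher.

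PRIMPOL (ENSG00000164306), on chromosome 4 from 184649667 to 184694963 on the + strand, encodes a primase with polymerase activity. In DMSO its exon CPM were 30.7, 30.5 and 30.9 at 24 h and 46.2, 48.3 and 43.3 at 72 h. In cisplatin they were 30.2, 26.4 and 28.4 at 24 h and 39.1, 40.3 and 38.3 at 72 h. Each 72 h library exceeded each 24 h library, and at both times each cisplatin library lay below each DMSO library. The log2 change with time was 0.58 in DMSO (standard error 0.069, adjusted p = 8.72e-08 by edgeR) and 0.48 in cisplatin (standard error 0.069, adjusted p = 1.8e-06), or 1.49-fold and 1.39-fold higher.

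Proliferation markers moved with the same contrast. The summed exon CPM of 21 proliferation genes was 5450 to 5520 in DMSO and 5360 to 5500 in cisplatin at 24 h, and 2410 to 2490 and 2550 to 2690 at 72 h. All 21 were called lower with time in both treatments. Their part in the changes of POLH, RAD18, POLI, PRIMPOL and MAD2L2 was not tested, and time in culture and the share of cycling cells cannot be told apart here.

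Cisplatin against DMSO, the comparison that asks how the drug changed these genes, gave 0 of 8 calls in exon counts at 24 h and 0 of 8 at 72 h (edgeR). Over all genes, 0% were called at 24 h (0 of 10444, 260 with p under 0.05 before adjustment, 0 by DESeq2) and 0.0287% at 72 h (3 of 10444, 79 by DESeq2). Before adjustment, 0 of the 8 genes had p under 0.05 at 24 h and 2 had it at 72 h, where 1311 of all 10444 genes had it, and DESeq2 called 0 of the 8 at both times. The 8 log2 changes ran from -0.12 to 0.04 at 24 h and from -0.22 to 0.30 at 72 h. Their 95% intervals lay between 0.83-fold and 1.16-fold at 24 h and between 0.781-fold and 1.39-fold at 72 h, so larger changes of these transcripts fall outside every interval.

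POLH and PRIMPOL were the 2 genes below an unadjusted p of 0.05 at 72 h, in opposite directions. POLH averaged 16.3 ± 1.36 CPM with cisplatin and 13.2 ± 0.154 CPM with DMSO (SD, n = 3 each), and the libraries did not overlap. Its log2 difference was 0.30 (95% interval 0.13 to 0.47, adjusted p = 0.175 by edgeR). PRIMPOL averaged 39.3 ± 1.02 CPM with cisplatin and 45.9 ± 2.52 CPM with DMSO, again without overlap, and its log2 difference was -0.22 (95% interval -0.36 to -0.087, adjusted p = 0.183 by edgeR). Neither passed the threshold. Groups were apart in 2 of 8 genes at 72 h and in PRIMPOL alone at 24 h, where 18.1% and 6.42% of all genes did not overlap. At 24 h PRIMPOL differed by -0.12 (95% interval -0.27 to 0.03).

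The difference between the cisplatin effects at the 2 times, the interaction term of edgeR, was called for 0 of the 8 genes (1 at an unadjusted p under 0.05, 0 by DESeq2). Over all 10444 genes, 0% were called (985 at an unadjusted p under 0.05, 0 by DESeq2). The 8 interaction terms ran from -0.10 for PRIMPOL to 0.32 for POLH.

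Intron counts include reads of unspliced RNA and, where genes overlap, may include reads of genes on the opposite strand. For POLH and POLI in DMSO intron counts moved in the same direction as exon counts. In edgeR's test of 9618 genes, 2 of 8 genes were called with time in DMSO and 2 of 8 in cisplatin, where 33.4% and 31.8% of all genes were called. POLI introns rose from 37.1, 39.7 and 33.3 to 59.3, 69.0 and 46.0 intron CPM (scaled likewise to the intron counts of a library) in DMSO (log2 change 0.64, adjusted p = 0.004 by edgeR). In cisplatin they rose from 29.2, 26.4 and 31.4 to 55.4, 59.8 and 52.9 (log2 change 0.98, adjusted p = 1.65e-05 by edgeR). Without replicate 2 of DMSO 72 h, its highest library, the DMSO change of POLI was 0.49 and was not called (adjusted p = 0.0514).

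POLH introns fell from 37.6, 45.3 and 26.9 to 11.7, 22.6 and 17.5 intron CPM in DMSO (log2 change -1.09, standard error 0.26, adjusted p = 0.000779 by edgeR). In cisplatin they were 36.6, 22.8 and 19.8 at 24 h and 24.0, 15.1 and 13.0 at 72 h, which overlap. That log2 change of -0.60 was not called (adjusted p = 0.0669), but it was called without Cisplatin 24 h replicate 3 (-0.73, adjusted p = 0.0379) and without Cisplatin 72 h replicate 1 (-0.90, adjusted p = 0.0143). It was also called with the library sizes of the exon counts (-0.68, adjusted p = 0.0429). The POLH gene overlaps GTPBP2 on the opposite strand over 15208 bases, and GTPBP2 exon counts rose with time by 1.46 on the log2 scale in DMSO. The strand setting of the counting is not given in the sources used here, so reads of this pair cannot be told apart.

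RAD18 had few intron counts, 17 to 47 per library, over the longest gene of the set. They amounted to 14.3, 12.7 and 12.8 intron CPM in DMSO at 24 h and 9.99, 9.38 and 7.55 at 72 h, a log2 change of -0.59 (adjusted p = 0.164 by edgeR). In cisplatin they were 17.2, 17.0 and 15.7 at 24 h and 12.6, 9.04 and 8.52 at 72 h, a log2 change of -0.72 that was called at an adjusted p of 0.0496. This call was lost without any one of 5 libraries: Cisplatin 24 h replicate 1 (adjusted p = 0.103), replicate 2 (0.125) or replicate 3 (0.0686), and Cisplatin 72 h replicate 2 (0.168) or replicate 3 (0.132). The log2 change then lay between -0.76 and -0.63. The RAD18 call was also lost by DESeq2 (adjusted p = 0.0669), and by edgeR without the filter (0.0787) or with the 6 cisplatin libraries alone (0.0506). HLTF introns, at 192 to 310 intron CPM, gave log2 changes of -0.19 and -0.20 that were not called, but were called without DMSO 24 h replicate 1 (-0.31, adjusted p = 0.0487) and without Cisplatin 24 h replicate 2 (-0.35, adjusted p = 0.0229). For MAD2L2 and PRIMPOL, the intron log2 change with time lay between 0.01 and 0.18 while exon counts rose.

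Cisplatin changed the intron counts of 0 of 8 genes at 24 h and of 0 of 8 at 72 h by edgeR (0 with p under 0.05 before adjustment and 0 by DESeq2, each time), where 0.0208% and 0.0416% of all genes were called. By the interaction term 0 of 8 genes (0 at an unadjusted p under 0.05, 0 by DESeq2) and 0.0416% of all genes were called. The 95% intervals for the 8 genes were wide, between 0.504-fold and 1.92-fold at 24 h and between 0.695-fold and 1.77-fold at 72 h. POLI introns lay lower in each cisplatin library than in each DMSO library at 24 h, with a log2 difference of -0.37 (95% interval -0.76 to 0.03, adjusted p = 0.942). RAD18 introns lay higher with cisplatin in each library at 24 h (log2 difference 0.33, adjusted p = 0.975), and MAD2L2 introns lay lower in each at 72 h (-0.20, adjusted p = 0.85). None of these passed the threshold. In all 2 of 8 genes had intron CPM that did not overlap between treatments at 24 h and 1 of 8 at 72 h, where 8.94% and 13.4% of all genes did not.

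**Figure D2:**
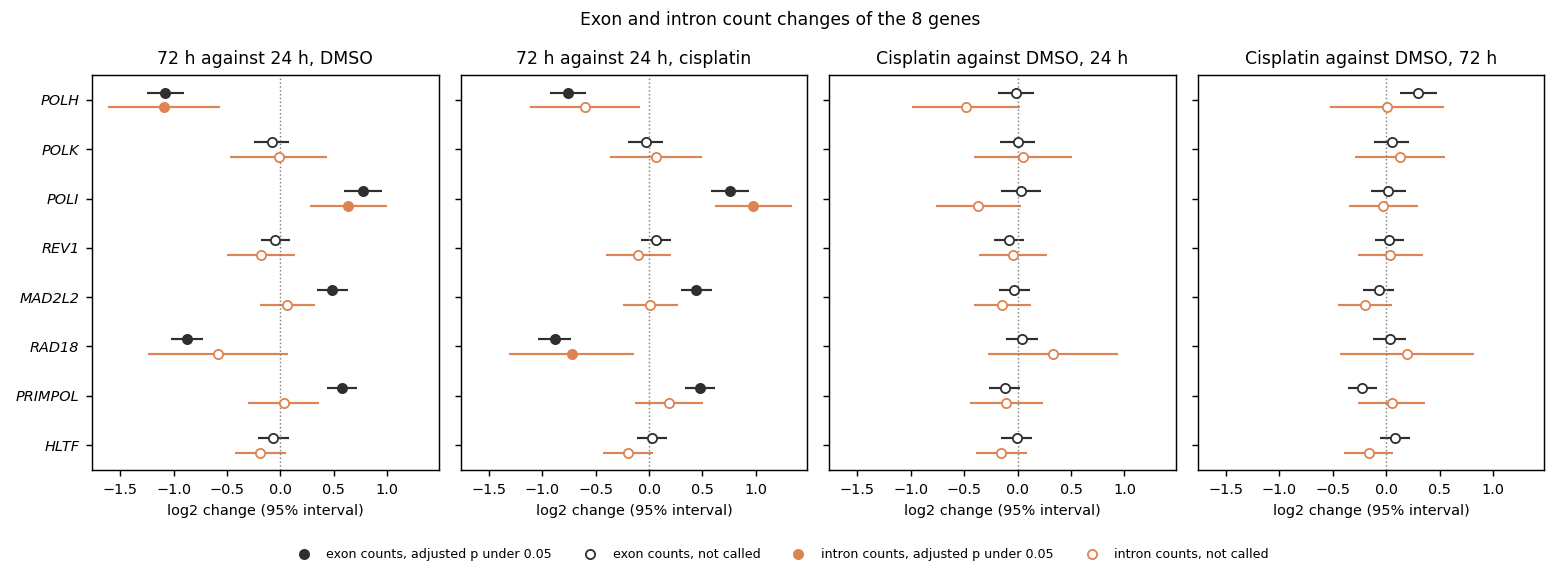
Log2 changes (horizontal axes) of exon counts (black) and intron counts (orange) of the 8 damage tolerance genes in 4 comparisons. Lines are 95% intervals, and filled points have an adjusted p under 0.05 by edgeR. Exon changes with time are filled for POLH, POLI, MAD2L2, RAD18 and PRIMPOL in both treatments, and no point is filled in either cisplatin comparison.

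The exon/intron ratio of a gene, exon counts divided by intron counts in the same library, served the study as a measure of splicing. MAD2L2 was the only one of the 8 genes whose ratio was called by edgeR with library as a term, and its exon counts rose while its intron counts gave no call. In DMSO its ratios were 6.10, 8.82 and 5.32 at 24 h and 8.56, 9.96 and 9.33 at 72 h, and in cisplatin 6.88, 6.78 and 6.55 at 24 h and 9.52, 10.1 and 8.93 at 72 h. The times overlapped in DMSO through replicate 2 at 24 h and did not overlap in cisplatin. The log2 change was 0.49 in DMSO (standard error 0.16, adjusted p = 0.0399 by edgeR) and 0.50 in cisplatin (standard error 0.15, adjusted p = 0.0316). Of 9380 genes, 11.5% were called in DMSO and 11.9% in cisplatin, so 1 of 8 is close to the background. The median ratio change over all genes was 0.10 in DMSO and 0.11 in cisplatin with time, and -0.09 and -0.08 for cisplatin at 24 and 72 h. Over the alternative settings these medians ran from 0.0596 to 0.138, 0.05 to 0.154, -0.134 to -0.0317 and -0.0978 to -0.0653, in that order.

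Both MAD2L2 ratio calls were lost when almost any 1 library was left out. The DMSO call was lost without DMSO 24 h replicate 1 (adjusted p = 0.148) or replicate 3 (0.201), and without DMSO 72 h replicate 1 (0.0528), replicate 2 (0.128) or replicate 3 (0.0995). The cisplatin call was lost without Cisplatin 24 h replicate 1 (0.0669), replicate 2 (0.0731) or replicate 3 (0.0612), and without Cisplatin 72 h replicate 1 (0.0756) or replicate 2 (0.123). Over all settings the log2 change lay between 0.35 and 0.69 in DMSO, with the highest value without DMSO 24 h replicate 2 (adjusted p = 0.00423), and between 0.45 and 0.54 in cisplatin. When the 6 DMSO libraries were fitted alone, MAD2L2 lost its call (adjusted p = 0.0552). The MAD2L2 gene overlaps FBXO6 over 10155 bases and FBXO44 over 4410 bases on the opposite strand, and exon counts of both were too low to be tested.

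PRIMPOL ratios were 6.96, 6.29 and 6.04 in DMSO at 24 h and 11.1, 10.1 and 8.74 at 72 h, with no overlap. The log2 change of 0.61 missed the threshold (adjusted p = 0.0515 by edgeR), but was called when the 6 DMSO libraries were fitted alone (adjusted p = 0.0192) and with a minimum of 1 count (adjusted p = 0.0385). In cisplatin they were 5.90, 4.35 and 11.0 at 24 h and 7.70, 7.68 and 7.83 at 72 h. The Cisplatin 24 h replicate 3 value of 11.0 rests on 44 intron counts, and without that library the log2 change with time went from 0.36 to 0.63 and was called (adjusted p = 0.017 by edgeR). Over the alternative settings this change lay between 0.033 and 0.63, with adjusted p up to 0.95 by edgeR. At 72 h the 3 cisplatin ratios lay below the 3 DMSO ratios, a log2 difference of -0.35 by edgeR (95% interval -0.75 to 0.05, adjusted p = 0.802). Over all genes, ratios did not overlap between treatments for 9.53% at 24 h and 14.4% at 72 h.

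**Figure D3:**
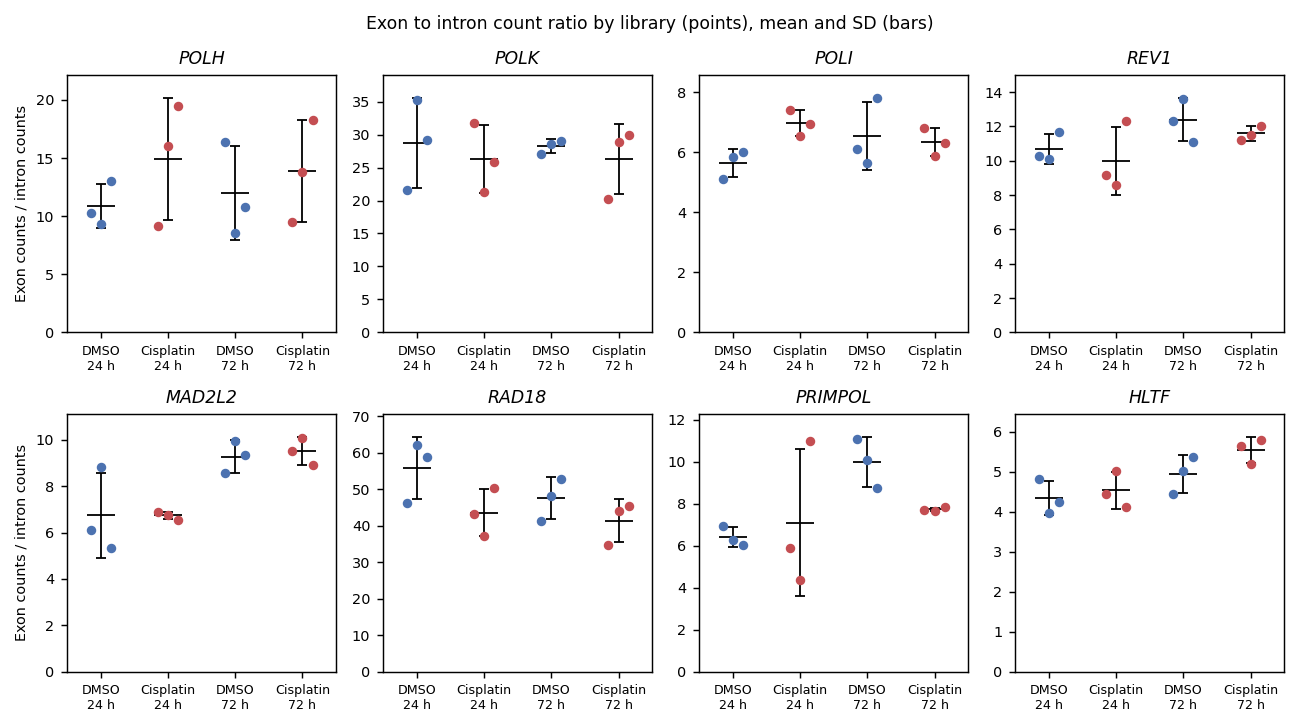
Exon to intron count ratio (vertical axes, starting at 0) of the 8 damage tolerance genes in each of the 12 libraries. Points are libraries (blue, DMSO; red, cisplatin), and bars show the mean and SD of 3. MAD2L2 ratios average 6.75 and 6.74 at 24 h and 9.28 and 9.52 at 72 h in DMSO and cisplatin, and PRIMPOL ratios at 72 h are lower with cisplatin in all 3 libraries.

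Cisplatin gave 0 of 8 ratio calls by edgeR at 24 h and 0 of 8 at 72 h (0 with p under 0.05 before adjustment, at either time). Over all genes, 0% were called at 24 h (594 with p under 0.05 before adjustment) and 0.0213% at 72 h. The interaction term called 0 of 8 genes (0 at an unadjusted p under 0.05) and 0% of all genes (427 at an unadjusted p under 0.05). Logistic regression, the test described in the study's methods, takes reads as independent and does not include the spread between libraries. With time it called 3 of 8 genes in DMSO (HLTF, MAD2L2 and PRIMPOL) and 4 of 8 in cisplatin (these and REV1), all with a higher ratio, where 33.7% and 40.6% of all genes were called. Cisplatin against DMSO gave 0 of 8 genes at 24 h (1 with p under 0.05 before adjustment) and 1 of 8 at 72 h, where 11.5% and 11.4% of all genes were called.

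The gene called at 72 h was PRIMPOL, with a log2 change of -0.33 (adjusted p = 0.00761 by logistic regression, adjusted over all genes). Without DMSO 72 h replicate 1 it was -0.26 (adjusted p = 0.0882). PRIMPOL lost its cisplatin time call without Cisplatin 24 h replicate 2, where the log2 change went from 0.45 to 0.08 (adjusted p = 0.706). The REV1 change of 0.27 became 0.15 without Cisplatin 24 h replicate 2 (adjusted p = 0.407). It stayed at 0.25 and 0.27 but lost its call without Cisplatin 24 h replicate 1 (0.0839) or Cisplatin 72 h replicate 2 (0.0583). The HLTF change of 0.22 in DMSO became 0.14 without DMSO 24 h replicate 2 (0.115) and 0.13 without DMSO 72 h replicate 3 (0.131), both uncalled. In a quasi-binomial fit, which takes the spread between replicates into account, every one of these 8 logistic calls was lost. Over all genes that fit made few calls with time (64 of 9739 in DMSO, 97 of 9818 in cisplatin). For cisplatin at 72 h it made 0 of 10011. Logistic regression had called 3278, 3984 and 1144 genes. Other logistic calls appeared when 1 library was left out. For cisplatin at 24 h these were PRIMPOL without Cisplatin 24 h replicate 3 (-0.39, adjusted p = 0.0126) and POLH without Cisplatin 24 h replicate 1 (0.71, 0.00473) or DMSO 24 h replicate 3 (0.48, 0.0368). At 72 h HLTF was called without Cisplatin 72 h replicate 2 (0.19, 0.0206) or DMSO 72 h replicate 3 (0.22, 0.0107).

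The study's splicing score is the log2 of the mean exon/intron ratio of one group over that of the other. For MAD2L2 it was 0.46 ± 0.11 with time in DMSO and 0.50 ± 0.090 in cisplatin (SD of the 3 libraries at 72 h, each scored alone). For PRIMPOL it was 0.63 ± 0.17 in DMSO and 0.12 ± 0.015 in cisplatin, and for cisplatin against DMSO it was 0.14 ± 0.69 at 24 h and -0.37 ± 0.015 at 72 h. Without Cisplatin 24 h replicate 3 the PRIMPOL score with time in cisplatin was 0.59 and the 24 h cisplatin score was -0.33, and without Cisplatin 24 h replicate 2 they were -0.13 and 0.40. POLI scored 0.30 ± 0.089 for cisplatin at 24 h and -0.04 ± 0.10 at 72 h. RAD18 scored -0.35 ± 0.22 and -0.20 ± 0.22, and POLH scored 0.45 ± 0.57 and 0.21 ± 0.47. These SDs leave out the spread of the second group.

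Of the intron counts as a share of a gene's counts, the lowest value was in RAD18 and the highest in HLTF. In RAD18 they ran from 1.58% (95% Wilson interval 1.07 to 2.32%) in DMSO 24 h replicate 2 to 2.81% (2.09 to 3.78%) in Cisplatin 72 h replicate 1. In HLTF they ran from 14.7% (13.5 to 16.1%) in Cisplatin 72 h replicate 3 to 20.1% (18.7 to 21.6%) in DMSO 24 h replicate 2. Only the counting error of each library alone enters these intervals. Reads without molecular identifiers are not independent molecules, so this error may be understated.

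Levels were compared between genes per length, as exon counts per kilobase of annotated exon and per 1000000 exon counts of the library, without TMM factors. In DMSO at 24 h the order of exon levels was HLTF at 14.1 ± 1.25, PRIMPOL at 10.9 ± 0.103, MAD2L2 at 10.7 ± 0.945, RAD18 at 7.55 ± 0.70, REV1 at 6.06 ± 0.325, POLH at 3.30 ± 0.134, POLK at 3.11 ± 0.428 and POLI at 1.59 ± 0.12 (SD, n = 3). PRIMPOL and MAD2L2, and POLH and POLK, did not differ beyond the sum of their SDs. At 72 h in DMSO it was PRIMPOL at 16.5 ± 0.802, MAD2L2 at 15.1 ± 0.735, HLTF at 13.5 ± 0.376, REV1 at 5.89 ± 0.0917, RAD18 at 4.14 ± 0.229, POLK at 2.95 ± 0.103, POLI at 2.72 ± 0.111 and POLH at 1.58 ± 0.0091. PRIMPOL and MAD2L2 again did not differ beyond that sum. POLI and POLH thus exchanged the last place between the times.

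Cisplatin libraries gave much the same order. At 24 h exon levels were 14.0 ± 0.686 for HLTF, 10.5 ± 0.62 for MAD2L2, 10.1 ± 0.695 for PRIMPOL, 7.78 ± 0.401 for RAD18, 5.74 ± 0.353 for REV1, 3.26 ± 0.23 for POLH, 3.11 ± 0.252 for POLK and 1.63 ± 0.137 for POLI. At 72 h they were 14.6 ± 1.6, 14.5 ± 0.673, 14.2 ± 0.362, 4.28 ± 0.221, 6.08 ± 0.394, 1.97 ± 0.166, 3.09 ± 0.139 and 2.79 ± 0.131 for the same genes in that order. MAD2L2 and PRIMPOL, and POLH and POLK, were within the sum of their SDs at 24 h, as were HLTF, MAD2L2 and PRIMPOL at 72 h. The place of MAD2L2 depends on the length used, since its exons cover 5431 bases together but 1053 bases in the canonical transcript. Per kilobase of canonical transcript it came first in every group, with 55.1 ± 4.88 in DMSO at 24 h. Other places also changed with that length. In DMSO at 24 h REV1 (9.96 ± 0.534) then stood above RAD18 (9.01 ± 0.835), and POLK (3.80 ± 0.523) above POLH (3.30 ± 0.134). In DMSO at 72 h POLI (4.23 ± 0.172) then stood above POLK (3.60 ± 0.126). Intron levels, on the same scale per kilobase of intron, ran in DMSO at 24 h from 0.00526 ± 0.00045 for RAD18 to 0.393 ± 0.061 for HLTF, and exon levels were 1450 times the intron level for RAD18 and 25.6 times for POLI.

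Genes around the 8 members mostly fell with time, where 32.5% of all genes were called lower and 32.6% higher in DMSO, and 31.5% and 32% in cisplatin. Of 17 tested genes of the PCNA ubiquitin cycle, 13 fell and 2 rose in DMSO, and 13 fell and 1 rose in cisplatin, with median exon log2 changes of -0.56 and -0.53. PCNA, the clamp itself, fell 3.30-fold in DMSO and 3.13-fold in cisplatin, and DTL, which targets chromatin-bound proteins for degradation at the clamp, fell 3.23-fold and 2.75-fold. ATAD5, which unloads the clamp, fell 2.75-fold and 2.38-fold. WDR48, the partner of the deubiquitinase USP1 that reverses the mark set by RAD18, rose 1.43-fold and 1.40-fold. UBE2B, a ubiquitin-conjugating partner of RAD18, rose 1.14-fold in DMSO (adjusted p = 0.048 by edgeR).

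Other polymerase genes also mostly fell. Of 14 tested, 10 fell and 3 rose in DMSO, and 10 fell and 2 rose in cisplatin, with medians of -0.81 and -0.79. POLE2, an accessory subunit of polymerase epsilon, fell 2.73-fold and 2.95-fold. In DMSO POLA2, a subunit of polymerase alpha, fell 2.18-fold and POLE, the catalytic subunit of polymerase epsilon, 2.14-fold, and in cisplatin POLA1, the catalytic subunit of polymerase alpha, fell 1.94-fold and PRIM2, the large primase subunit, 1.90-fold. The genes that rose encode the X-family repair polymerases POLL (1.77-fold and 1.78-fold), POLB (1.31-fold and 1.17-fold) and, in DMSO, POLM (1.44-fold).

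Of 17 genes for single-strand binding, fork remodelling and gap protection, 14 fell and 0 rose in DMSO, and 14 fell and 1 rose in cisplatin, with medians of -0.77 and -0.77. CLSPN, a mediator of the replication checkpoint, fell 4.49-fold and 3.64-fold. RPA1, which coats single-stranded DNA, fell 2.07-fold in DMSO and TIPIN, of the fork protection complex, 2.13-fold in cisplatin, while the fork remodeler SMARCAL1 rose 1.12-fold in cisplatin. Of 9 partners of MAD2L2, 6 fell and 0 rose in DMSO, and 6 fell and 1 rose in cisplatin, with medians of -0.35 and -0.28. They included TRIP13, the ATPase that remodels MAD2L2 (2.18-fold and 2.19-fold lower), RIF1 (1.92-fold and 1.52-fold lower) and MAD2L1 (1.71-fold and 2.09-fold lower), and FZR1, an activator of the anaphase-promoting complex, rose 1.22-fold in cisplatin. The median over all genes tested was 0.02 in both treatments.

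Of 15 tested p53 targets, 5 rose and 1 fell in each treatment with time, a share of higher calls near that of all genes (32.6% and 32%), and the one that fell was POLH, itself a known p53 target. The stress-induced genes GDF15 (6.13-fold and 5.04-fold) and SESN2 (5.33-fold and 5.28-fold) rose most, and PLK3 rose 1.70-fold and 1.60-fold. The 21 proliferation genes had a median of -1.06 in DMSO and -1.04 in cisplatin, and CCNE2, an S-phase cyclin, fell 5.08-fold and 5.20-fold. MCM4 and RRM2, of the replicative helicase and of nucleotide synthesis, fell 4.27-fold and 3.96-fold in DMSO.

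**Figure D4:**
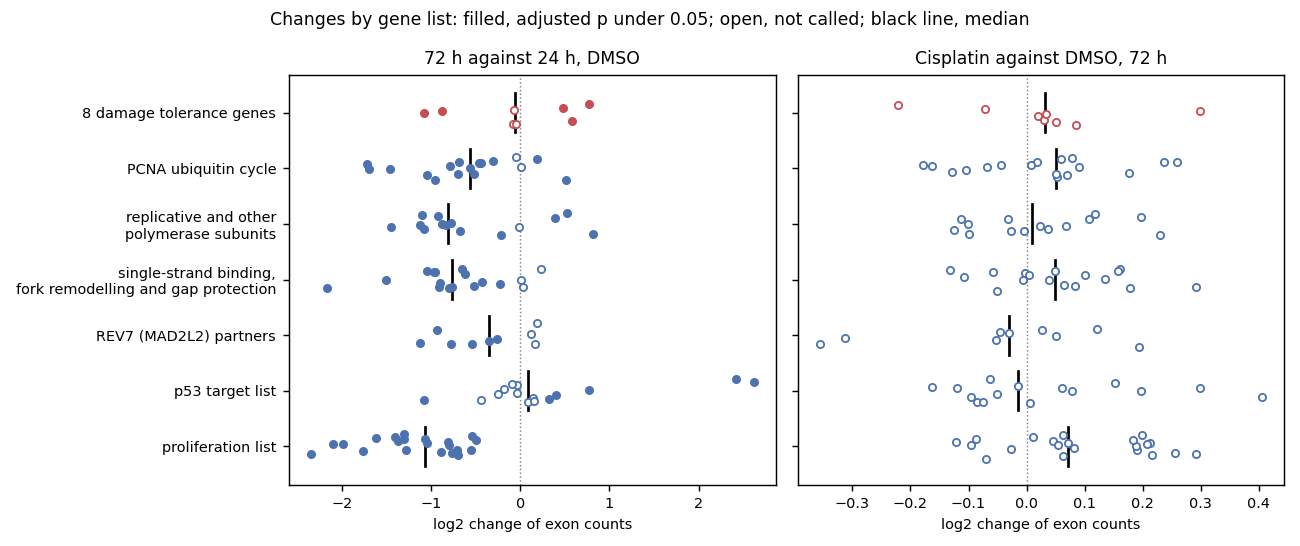
Log2 changes of exon counts (horizontal axes, scales differ between panels) for the 8 damage tolerance genes (red) and 6 gene lists (blue). Each point is a gene, filled where the adjusted p was under 0.05 by edgeR, and black lines are medians; POLH also belongs to the p53 list. With time in DMSO the lists of replication and clamp genes lie mostly below 0 with all 21 proliferation genes filled, and with cisplatin at 72 h no point is filled.

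With cisplatin, 0 genes of any of these 6 lists were called in exon counts at either time by edgeR. Before adjustment, 0 genes of any list had p under 0.05 at 24 h. The later numbers were 4 of 17 for the PCNA cycle, 2 of 14 for polymerases, 3 of 17 for fork genes, 3 of 9 for MAD2L2 partners, 2 of 15 for p53 targets and 10 of 21 for proliferation genes, beside 1311 of 10444 over all genes. DESeq2 called 4 proliferation genes at 72 h and 0 genes of the other lists. Median log2 differences at 72 h lay between -0.03 for MAD2L2 partners and 0.07 for proliferation genes.

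Intron counts and ratios of the lists were read beside the 33.4% (introns) and 11.5% (ratios by edgeR) of all genes called with time in DMSO, and 31.8% and 11.9% in cisplatin. In DMSO 2 of 19 PCNA cycle genes rose and 6 fell in intron counts, led by WDR48 (2.87-fold higher) and DTL (4.31-fold lower). Among the other polymerases 1 of 15 rose and 9 fell, led by POLD4 (3.18-fold higher) and POLA2 (3.54-fold lower), and 10 of 17 fork genes fell, led by CLSPN (4.64-fold lower). For MAD2L2 partners 3 of 10 fell, led by TRIP13 (3.06-fold lower). The exon/intron ratio was called lower for 4 of 17 PCNA cycle genes, led by ATAD5 (2.47-fold), UBE2V2, which builds ubiquitin chains with UBC13 (2.19-fold), and WDR48 (1.93-fold), and higher for 3 of 14 polymerase genes, led by POLA2 (1.71-fold), POLL (1.57-fold) and POLM (1.55-fold). Among fork genes 1 of 17 ratios was called higher and 1 lower, and among MAD2L2 partners 0 of 9 (2 with p under 0.05 before adjustment). In cisplatin 2 of 19 PCNA cycle genes rose and 6 fell in intron counts, 1 of 15 polymerase genes rose and 9 fell, 11 of 17 fork genes fell and 2 of 10 MAD2L2 partners fell. Ratios there were lower for 2 of 17 PCNA cycle genes and higher for 3 of 14 polymerase genes. Among fork genes 1 of 17 ratios was called higher and 2 lower, and among MAD2L2 partners 0 of 9 (1 with p under 0.05 before adjustment).

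The genes with the most similar course across libraries were found for POLH, RAD18 and POLI. By Pearson correlation of log2 exon CPM over the 12 libraries among 10443 other genes, WDR62 (r = 0.992), B4GALNT1 (0.99) and HEG1 (0.989) were most like POLH. PAICS, MFAP1 and COPB2 (0.996 each) were most like RAD18, and BABAM2 (0.997), RRAGC (0.992) and ZNF23 (0.99) most like POLI. These values are descriptions over libraries of both times and treatments. Among the members, the values ran from -0.974 for POLH with PRIMPOL to 0.945 for POLH with RAD18. After the group means were removed, these pairs had -0.65 and -0.313.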

How the data were processed

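Exon and intron counts of 12 TYK-nu libraries (3 per group) were used as deposited: whole-number counts per gene, not normalized. The authors trimmed reads with Trim Galore 0.6.0, aligned them to GRCh38 with HISAT2 2.1.0 and counted them with HTSeq (intersection-strict for exons, union for introns) against Ensembl release 98. Gene positions and lengths came from GENCODE release 44 (GRCh38). Groups came from the sample labels.

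Exon and intron counts were tested with edgeR 4.0.16 (glmQLFit, R 4.3.3), all 12 libraries in one fit, with TMM factors and filterByExpr. The ratio test gave each library a term and kept genes with 10 exon and 10 intron counts in the same 3 or more libraries. Logistic regression (Wald test) needed 1 of each in all 6 libraries compared. Intervals are 95%. Scripts were tested on simulated data. DESeq2 1.42.0, other normalizations and filters, the replicate block, 6-library fits and left-out libraries were alternatives. The 8 genes, lists and motifs were chosen with earlier results of these data known. List genes were named if among the 3 largest called changes per direction, and some are not reported here. Listed genes without a row or exon entry (7 and 5 genes) were not used.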

Additional observations from a re-analysis of the deposited data

How the results depend on the processing

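None of the 1720 alternative values of the 8 genes reversed a called direction. The call was kept or stayed absent in 1670, was lost in 35 and appeared in 15, and 142 of 1449 values uncalled in both settings changed sign. The cause of these differences was not tested. With a replicate block in each model, the number of the 8 genes called by logistic regression for cisplatin at 72 h was 2 in place of 1 (HLTF was added), and no other number of called genes changed. Same-numbered libraries did not deviate together (r from -0.108 to 0.102 for exon counts, with 1 of 12 pairs over 0.1). Differently numbered libraries were not compared, so these values cannot tell whether the cultures were paired when set up.

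Quasi-binomial regression called 0 of the 8 genes with time in either treatment and 0 of the 8 for cisplatin at 72 h. For intron counts with time in cisplatin, DESeq2, no filter and the 6-library fit each called 1 of the 8 genes in place of 2, and exon library sizes 3. The 6-library ratio fit with time in DMSO called PRIMPOL in place of MAD2L2. A minimum of 1 count made the ratio calls with time in DMSO 2 in place of 1. Leaving out 1 library gave 0 to 1 ratio calls by edgeR with time in DMSO and in cisplatin, 1 to 3 intron calls in each, and 5 to 6 and 5 exon calls. By logistic regression it gave 2 to 3 calls with time in DMSO, 2 to 4 in cisplatin, 0 to 1 for cisplatin at 24 h and 0 to 2 at 72 h. Over all genes and under the alternatives, exon calls for cisplatin at 72 h ran from 0 to 154 (79 by DESeq2, 154 without a filter), those at 24 h from 0 to 7 and the interaction from 0 to 20. Intron calls ran from 0 to 5 for cisplatin at 24 h, 2 to 26 at 72 h and 0 to 11 for the interaction. Ratio calls by edgeR ran from 699 to 1057 with time in DMSO (1075 as reported), 636 to 1121 in cisplatin (1118 as reported) and 1 to 4 for cisplatin at 72 h. Logistic calls ran from 64 to 3298 and 97 to 3990 with time, and from 0 to 1555 and 0 to 1273 for cisplatin. The median log2 ratio change over all genes ran from 0.0678 to 0.165 with time in cisplatin by logistic regression. Levels per length moved with the canonical length. Depth limits the intron results, since RAD18 and POLH had as few as 17 and 20 intron counts in a library.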
